A study of Mus musculus with 20 samples.

Results

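The SLC25 proteins are solute carriers, most of them of the inner mitochondrial membrane, and their genes in the mouse carry symbols that begin with Slc25a. All rows of the deposited tables with such a symbol were taken, which gave 47 genes of the 24968 symbols that have 1 row each. No measured value entered the choice. RNA was sequenced from total liver of mice given a control or an alcohol diet for 6 weeks, and from RAW264.7, a mouse macrophage-like cell line treated for 6 hours. WT liver had 4 libraries on each diet and RageΔMye liver had 3 on each, and all animals are labelled male. The name RageΔMye stands for a myeloid deletion of Ager, which encodes the receptor RAGE. Its allele and its driver line, and the strain and age of the animals, were not stated in the labels used here. RAW264.7 cells, labelled WT, were given BSA (n = 3) or a complex of [O] HMGB1 with IL1β (n = 3). No label says that the libraries of a group came from separate animals or cultures, so the p-values below measure the spread between these libraries, which may be technical.

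The carriers of known substrate move metabolites across membranes that are otherwise tight: ADP and ATP, phosphate, carboxylates, amino acids, acylcarnitines, cofactors or iron. Some members have no settled substrate, and a few sit in the outer mitochondrial or the peroxisomal membrane. In hepatocytes these steps join the respiratory chain to urea synthesis, gluconeogenesis, fatty acid oxidation and lipogenesis, since each of those pathways has enzymes on both sides of the membrane. Oxidation of ethanol in the cytosol produces NADH, whose reducing equivalents reach the mitochondria by shuttles that depend on SLC25 carriers of aspartate, glutamate, malate and 2-oxoglutarate.

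Values are in TPM (transcript abundance scaled to a fixed total per library), which are divided by transcript length, so that levels of different members can be set beside each other. Several checks of the libraries bear on every result below. The value above 0 that occurs most often, a rough gauge of the lowest level a library resolves, lay between 0.0576 and 0.0835 TPM in the WT liver libraries. It lay between 14.4 and 20.5 TPM in those labelled RageΔMye and between 9.85 and 13.4 TPM in RAW264.7. Genes above 0 numbered 15109 to 15595 in WT, 8629 to 9229 in RAW264.7 and 7592 to 8499 in the libraries labelled RageΔMye, so a 0 outside WT is given as listed at 0, not as absence. Genes with an exon that lies over an exon of the opposite strand took 15.4% to 18.3% of TPM in WT, 56.0% to 58.9% in RAW264.7 and 55.8% to 61.7% in the libraries labelled RageΔMye. Ager was listed at 93.1 to 166 TPM in the libraries labelled RageΔMye and at 0.0194 to 0.478 TPM in WT, so it was higher where the label names its deletion. That deletion is labelled as myeloid and the RNA is from total liver, so these values cannot decide the genotype. Whether reads of the opposite strand add to Ager was not tested. In WT liver, Xist lay between 0.00165 and 0.135 TPM on control diet and between 17.8 and 27.3 TPM on alcohol, while 4 Y-linked genes summed to 11.3 to 16.6 TPM and 0 to 0.0161 TPM, so that a diet effect cannot be told apart from one of sex in WT. The labelled tissues held their markers: 8 hepatocyte genes summed to between 126813 and 167019 TPM in WT and between 41669 and 70096 TPM in libraries labelled RageΔMye, and 9 macrophage genes to between 1120 and 1592 TPM in RAW264.7, where 7 of the 8 hepatocyte genes were listed at 0.

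The family was led by few carriers in WT liver on control diet. Its 47 members summed to 2816 ± 232 TPM (SD, n = 4), between 2486 and 3013 TPM per library, and 34 had a mean of at least 1 TPM, 19 of at least 10 TPM and 9 of at least 100 TPM. Slc25a5 and Slc25a47 together held 47.3% of that sum, and the 9 highest members held 83.5%. The other 13 members had a mean under 1 TPM, and Slc25a54 was at 0 in all 4 libraries.

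The highest member was Slc25a5, the main ADP/ATP exchanger of proliferating and many resting tissues, at 679, 808, 708 and 694 TPM in the 4 control libraries. Slc25a47, a carrier known for its expression in liver, stood at 527, 665, 464 and 779.6 TPM. The libraries of these genes overlapped, so their order is not set by these data. Slc25a39, which imports glutathione, followed at 235, 280.1, 258 and 249 TPM. Slc25a20, the carnitine/acylcarnitine exchanger of fatty acid oxidation, was at 188, 202, 211 and 227 TPM. Slc25a3, the phosphate carrier that supplies ATP synthase, was at 109, 132, 133 and 147 TPM. Each of these 3 lay wholly below the one before it, library by library.

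Below them came the amino acid carriers, which overlapped one another. Slc25a22, a glutamate carrier, was at 89.1, 105, 130.0 and 120.1 TPM. Slc25a13 (citrin), the liver form of the aspartate/glutamate exchanger of the malate-aspartate shuttle, was at 83.5, 90.9, 133 and 121 TPM. Slc25a15, the ornithine carrier of the urea cycle, was at 102, 94.3, 127 and 104 TPM. Among the 20 highest members, 16 of the 19 neighbouring pairs in the order overlapped, and the 3 that did not were Slc25a47 over Slc25a39, Slc25a39 over Slc25a20 and Slc25a20 over Slc25a3.

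Related pairs of carriers were present at very unequal levels in WT control liver. Slc25a4, the ADP/ATP exchanger typical of heart and muscle, had 2.86 ± 0.845 TPM beside 722 ± 58.2 TPM of Slc25a5 (SD, n = 4, here and for the pairs that follow). Slc25a12 (aralar), the aspartate/glutamate exchanger typical of muscle and brain, had 6.86 ± 1.24 TPM beside 107 ± 23.8 TPM of Slc25a13. Slc25a2, an ornithine carrier, had 0.229 ± 0.194 TPM beside 107 ± 13.8 TPM of Slc25a15. In each pair every library of the lower gene lay under every library of the higher one. The same held for Slc25a40 (0.685 ± 0.143 TPM) under its relative Slc25a39 (256 ± 18.8 TPM), and for Slc25a18 (0 to 0.0353 TPM) under Slc25a22, both glutamate carriers. Slc25a36, a pyrimidine nucleotide carrier, had 0.179 ± 0.0329 TPM beside 6.19 ± 0.995 TPM of Slc25a33. Slc25a28 (mitoferrin-2), the iron carrier of most tissues, had 1.09 ± 0.220 TPM, under Slc25a37 (mitoferrin-1), known from erythroid cells, at 3.92 ± 1.12 TPM.

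**Figure D1:**
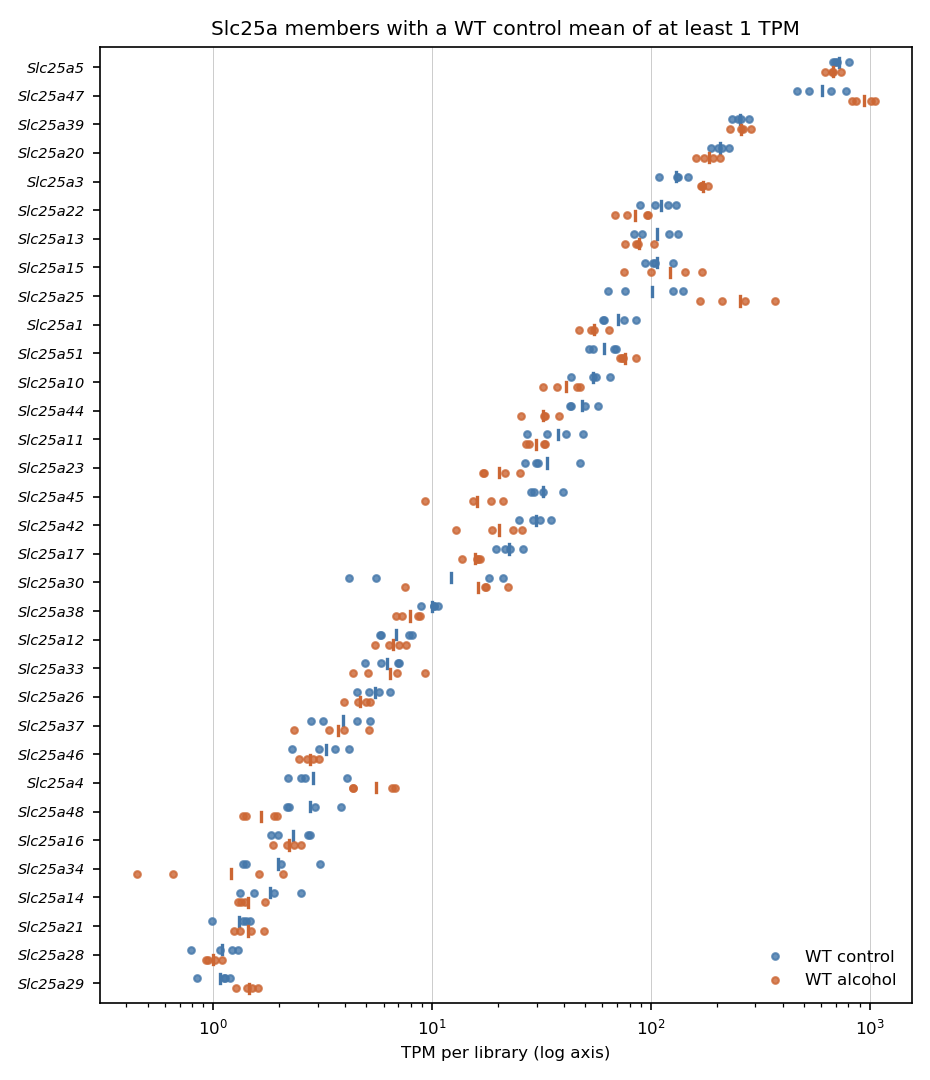
Level of 33 of the 34 members with a WT control mean of at least 1 TPM, on a log axis of TPM per library; points are the 4 control (blue) and 4 alcohol (orange) WT liver libraries and bars their means. Slc25a5 and Slc25a47 lead on both diets, and the alcohol points of Slc25a25 lie to the right of its control points.

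The members lay on 19 chromosomes in the GENCODE annotation, and 4 pairs were neighbours. Slc25a29, a carrier of basic amino acids, and Slc25a47 lie head to head on chr12, 162 bases apart by the outermost GENCODE starts, and stood at 1.07 ± 0.157 and 609 ± 142 TPM (SD, n = 4). Slc25a43 and Slc25a5 lie 18448 bases apart on chrX and stood at 0.00930 ± 0.0115 and 722 ± 58.2 TPM. Slc25a41 and Slc25a23, related ATP-Mg/phosphate carriers 2056 bases apart on chr17, stood at 0.0132 ± 0.0265 and 33.5 ± 9.35 TPM. Slc25a54 and Slc25a24, 6461 bases apart on chr3, were both under 1 TPM in WT liver.

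Promoter windows are shown for 2 of the members that differed between the diet groups of WT liver. The set of RefSeq starts at hand covered 36 of the 47 members, 46 starts in all, with sequence of GRCm38.p6 (mm10). The other members, Slc25a44 among them, are left out of the shares below. The 250 bases before each start were searched on both strands for 5 motifs, none of which contains another. GGGCGG (GC box) was in 69.6% of the member starts and in 32.7% of the 32851 starts of all genes. CCAAT was in 45.7% of member starts and 33.8% of all starts. The E-box CACGTG was found in 17.4% and 6.02% of them, respectively. For the TATA box, TATAAA, the shares were 4.35% and 12.4%. These shares count starts, and windows of the same gene can overlap, so a site can count more than once. The CACGTG run of Slc25a14 is such a site, 54 bases before 1 start and 184 bases before another. G and C made up 41.6% to 80.4% of the bases in the member windows, beside a median of 52.4% over all starts. The part of base composition in the shares was not tested. TGACGTCA, the cAMP response element, was in 2 member starts and in 1.55% of all starts. One of the 2 is an inner start of Slc25a25, the member with the largest change in WT liver, and the other belongs to Slc25a36. A match is a run of letters, not a measured binding site. The sequences of this inner start and of the outermost start of Slc25a25, and that of Slc25a47, the highest member that changed, are shown 5′ to 3′ on the gene's strand, with motif matches in capitals.
Slc25a25, inner start, chr2:32424067-32424316, minus strand: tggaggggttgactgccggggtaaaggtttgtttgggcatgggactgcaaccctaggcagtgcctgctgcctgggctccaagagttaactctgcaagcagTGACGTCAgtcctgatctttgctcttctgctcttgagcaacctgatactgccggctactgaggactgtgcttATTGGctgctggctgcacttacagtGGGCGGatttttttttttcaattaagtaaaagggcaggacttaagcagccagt
Slc25a25, outermost start, chr2:32451471-32451720, minus strand: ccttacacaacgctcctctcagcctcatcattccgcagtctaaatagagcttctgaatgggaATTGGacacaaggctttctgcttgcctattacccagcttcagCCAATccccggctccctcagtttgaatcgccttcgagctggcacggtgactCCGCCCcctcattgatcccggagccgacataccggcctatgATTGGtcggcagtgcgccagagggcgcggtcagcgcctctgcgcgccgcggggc
Slc25a47, chr12:108850879-108851128, plus strand: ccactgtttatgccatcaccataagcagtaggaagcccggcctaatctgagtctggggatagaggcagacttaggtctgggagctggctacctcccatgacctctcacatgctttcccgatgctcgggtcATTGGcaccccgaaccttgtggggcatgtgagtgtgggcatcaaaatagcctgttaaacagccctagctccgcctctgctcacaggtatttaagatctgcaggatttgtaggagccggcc
In the inner window the TGACGTCA run begins 150 bases before the start, a CCAAT run on the other strand 78 bases before it and a GGGCGG run 53 bases before it. The outermost window of Slc25a25 holds 3 CCAAT runs and 1 GGGCGG run and no TGACGTCA. The window of Slc25a47 lies at its RefSeq start, which is inside the GENCODE gene and not in the gap to Slc25a29. It holds 1 CCAAT run, 120 bases before the start, and neither of the others.

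Carriers differed in both directions between the diet groups of WT liver, which also differ in Xist and Y-linked RNA. Of the 34 members tested, 4 were higher on alcohol (Slc25a25, Slc25a4, Slc25a47, Slc25a3) and 6 lower (Slc25a45, Slc25a17, Slc25a44, Slc25a23, Slc25a48, Slc25a42). These values are differences on the log2(TPM + 1) scale, tested with limma and adjusted by Benjamini-Hochberg over the 9380 genes whose mean reached 1 TPM, with a threshold of 0.05. The 10 called members were 29.4% of those tested, beside 30.3% of all genes (13% higher and 17.4% lower), a share near that of genes at large. The median change of the members was -0.17, beside -0.05 for all genes. In 12 of the 34 members the libraries of the diets did not overlap, beside 30.0% of all genes. The 13 members with a mean under 1 TPM were not tested.

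**Figure D2:**
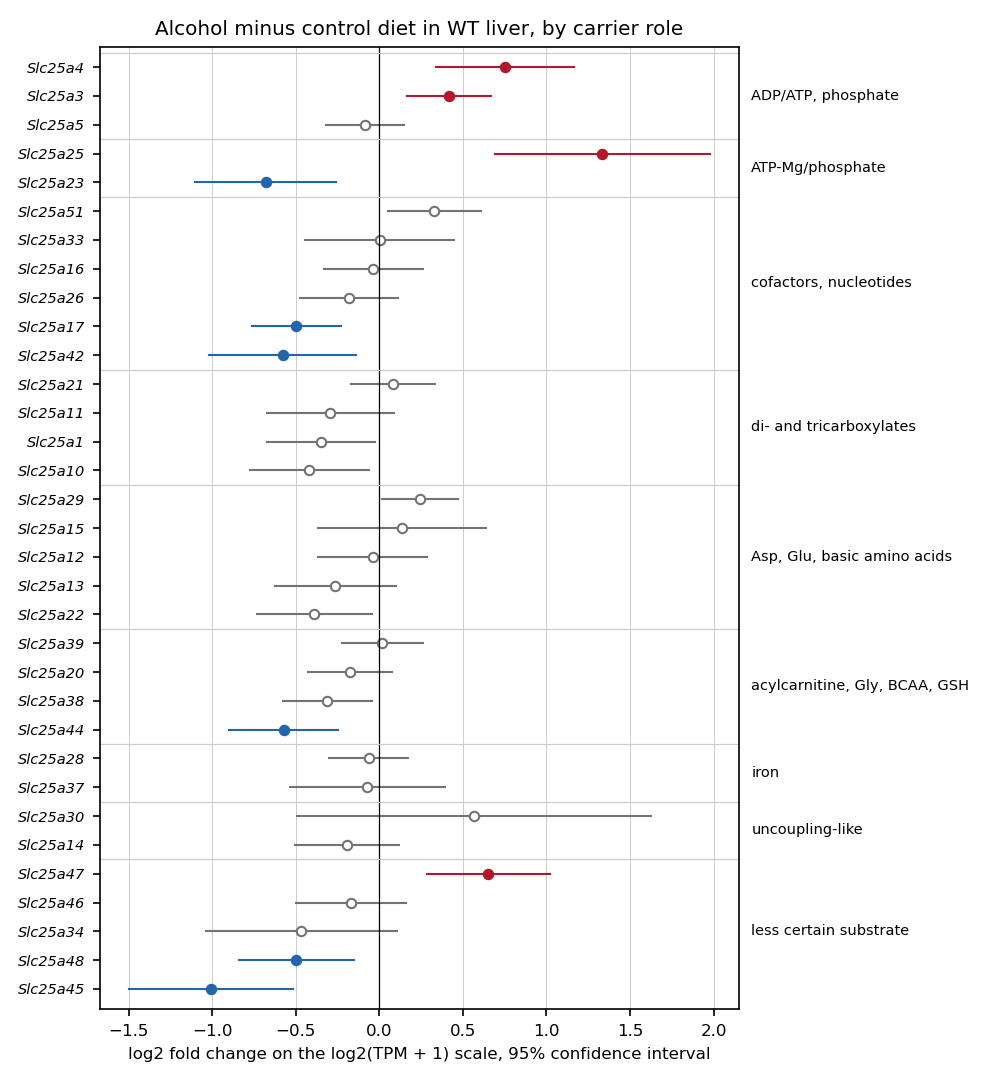
Change of 33 of the 34 tested members on alcohol diet in WT liver, grouped by carrier role, as log2 fold change on the log2(TPM + 1) scale with its 95% confidence interval; filled points passed the test (red higher, blue lower) and open points did not. Slc25a25 is highest at 1.33 and Slc25a45 lowest at -1.01.

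The ATP-Mg/phosphate carriers exchange adenine nucleotides for phosphate, most of them under control of calcium, and so set the nucleotide content of the matrix. Of these carriers, 2 were tested and they moved in opposite directions. Slc25a25 (SCaMC-2) was at 63.6, 76.1, 140.2 and 126 TPM with control diet, against 369.5, 212, 167 and 270.4 TPM with alcohol. All alcohol libraries lay above all control libraries, although both groups spread widely. The change was 1.33 (SE 0.290, limma adjusted p = 0.00709), the largest rise in the family, and Slc25a25 passed the test under all 15 alternatives in which it was tested. Slc25a23 (SCaMC-3) was at 30.6, 29.7, 47.3 and 26.6 TPM with control diet, against 17.3, 25.3, 17.1 and 21.5 TPM with alcohol, again without overlap. It fell by 0.68 (SE 0.190, limma adjusted p = 0.0226). Slc25a24 (SCaMC-1) was too low for the test, at 0.0801 to 0.222 TPM on control diet and 0.301 to 0.617 TPM on alcohol, and Slc25a41 was at 0 in 7 of the 8 libraries.

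Of the ADP/ATP and phosphate carriers, 2 of 3 tested members rose. Slc25a3 rose from 109, 132, 133 and 147 TPM to 172, 183, 170.5 and 169.7 TPM. The alcohol libraries were nearly equal and all lay above the control libraries, with a change of 0.42 (SE 0.113, limma adjusted p = 0.0196). Slc25a4 rose from 2.51, 4.10, 2.20 and 2.63 TPM to 6.79, 4.33, 4.35 and 6.56 TPM, a change of 0.75 (SE 0.187, limma adjusted p = 0.0132). It remained low beside Slc25a5, which had 677, 676, 628 and 741 TPM on alcohol, with overlap between diets and a change of -0.08 (95% interval -0.32 to 0.15). Markers of skeletal muscle, where Slc25a4 is abundant, were at 0 in all WT control libraries and summed to at most 0.607 TPM on alcohol. In RAW264.7 with BSA, Slc25a4 was at 80.6, 60.5 and 7.29 TPM. Macrophage genes (9) summed to 88.0 to 95.7 TPM on control diet and 133 to 203 TPM on alcohol in WT liver. The part of other cells in the Slc25a4 values was not tested.

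Slc25a47, whose substrate is less certain, rose from 527, 665, 464 and 779.6 TPM to 1015, 1059, 830.4 and 870.0 TPM and so stood above Slc25a5 in every alcohol library. The change was 0.65 (SE 0.167, limma adjusted p = 0.0151). Its neighbour Slc25a29 had 0.839 to 1.19 TPM on control diet and 1.26 to 1.6003 TPM on alcohol, with no overlap, but did not pass (0.24, limma adjusted p = 0.0988). The other called members of uncertain substrate fell. Slc25a45 was at 39.6, 32.0, 29.1 and 28.2 TPM with control diet, against 9.23, 18.6, 21.04 and 15.3 TPM with alcohol. This was the largest fall in the family, by 1.01 (SE 0.222, limma adjusted p = 0.00747), and every alcohol library lay below every control library. Slc25a48 went from 2.17, 2.21, 3.81 and 2.91 TPM to 1.36, 1.89, 1.94 and 1.41 TPM and fell by 0.50 (SE 0.156, limma adjusted p = 0.0353). Slc25a34 and Slc25a46, the latter an outer membrane protein tied to mitochondrial shape, did not pass.

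Cofactor carriers that passed were both lower. Slc25a17, a peroxisomal carrier of coenzyme A, FAD and NAD, was at 19.6, 22.7, 26.0 and 21.6 TPM with control diet, against 16.2, 16.04, 13.7 and 16.6 TPM with alcohol. It fell by 0.50 (SE 0.121, limma adjusted p = 0.0122) without overlap. Slc25a42, the mitochondrial coenzyme A carrier, had 24.9, 31.3, 34.9 and 28.8 TPM on control diet and 18.8, 25.8, 23.3 and 12.9 TPM on alcohol. Here 1 alcohol library lay within the control range, and the fall of 0.58 (SE 0.198, limma adjusted p = 0.0487) was lost under 13 of 16 alternatives, with adjusted p from 0.0178 to 1. Slc25a51, the NAD carrier, was at 52.2 to 69.4 TPM on control diet and 71.9 to 85.1 TPM on alcohol, with no overlap, but did not pass (0.33, limma adjusted p = 0.0719). The carriers of S-adenosylmethionine (Slc25a26) and pyrimidine nucleotides (Slc25a33) and Slc25a16 did not pass, and Slc25a32 and Slc25a36 were under 1 TPM.

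Slc25a44, which carries branched-chain amino acids, was the called member among the acylcarnitine, glycine, branched-chain and glutathione carriers. Its libraries were at 42.5, 43.1, 57.3 and 49.9 TPM with control diet, against 25.5, 32.7, 32.3 and 38.2 TPM with alcohol. They did not overlap, and it fell by 0.57 (SE 0.147, limma adjusted p = 0.0153). Slc25a38, which supplies glycine for haem synthesis, went from 8.91 to 10.6 TPM on control diet to 6.82 to 8.83 TPM on alcohol without overlap, and did not pass (-0.31, limma adjusted p = 0.0773). Slc25a20 had 175, 206, 192 and 161 TPM on alcohol (-0.17, 95% interval -0.42 to 0.08). Slc25a39 had 229, 287, 264 and 257 TPM on alcohol, a difference of 0.02 from control diet (95% interval -0.22 to 0.26).

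**Figure D3:**
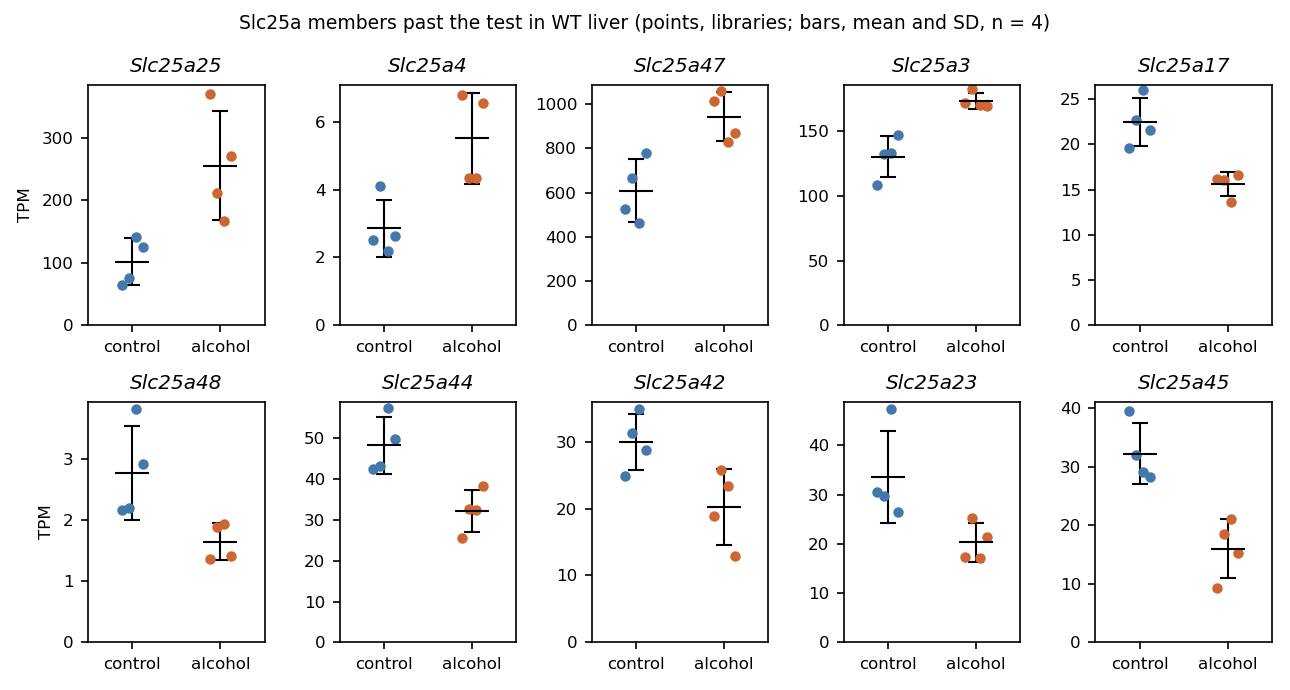
TPM of the 10 called members in each WT liver library by diet, on linear axes from 0; points are libraries and bars the mean and SD (n = 4 per diet). In 9 of the 10 the diets do not overlap, and Slc25a42 is the exception.

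None of the 4 di- and tricarboxylate carriers and none of the 5 tested aspartate, glutamate and basic amino acid carriers passed, and 2 in each group had an unadjusted p under 0.05, beside 42.1% of all genes. Slc25a1, which exports citrate for lipogenesis, had 60.5 to 85.7 TPM on control diet and 47.0 to 64.4 TPM on alcohol (-0.35, limma adjusted p = 0.0937). Slc25a10, the dicarboxylate carrier, had 43.2 to 64.7 TPM and 32.0 to 47.5 TPM (-0.42, limma adjusted p = 0.0729). Slc25a11, the 2-oxoglutarate/malate carrier of the malate-aspartate shuttle, had a difference of -0.29 (95% interval -0.67 to 0.09). Its shuttle partner Slc25a13 was at 85.2, 103, 76.1 and 87.6 TPM on alcohol, a difference of -0.26 (95% interval -0.63 to 0.10), and Slc25a12 differed by -0.04. Slc25a22 was at 77.4, 96.2, 96.7 and 68.5 TPM on alcohol (-0.39, limma adjusted p = 0.0834). Slc25a15 spread from 75.6 to 171 TPM on alcohol, wider than its 94.3 to 127 TPM on control diet, with a difference of 0.14 (95% interval -0.36 to 0.64). The iron carriers Slc25a28 and Slc25a37 differed by -0.06 and -0.07, and the uncoupling-like carriers Slc25a14 and Slc25a30 by -0.19 and 0.57, the last with a 95% interval from -0.49 to 1.62.

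Genes around the carriers in WT liver were counted from lists written with earlier results of these data known, and their counts stand beside 30.3% of all genes called (13% higher and 17.4% lower). Of the 5 family members with other symbols, Ucp2, an inner membrane carrier long discussed as an uncoupler, rose from 27.1, 41.8, 29.5 and 39.2 TPM to 49.8, 65.1, 61.3 and 69.8 TPM (0.83, SE 0.164, limma adjusted p = 0.00444). Mtch2, an outer membrane insertase, fell by 0.32 (limma adjusted p = 0.0400), and Ucp1 and Ucp3 were under 0.1 TPM in every WT library. Of the 13 genes of the TIM22 route, by which carriers enter the inner membrane, 1 fell and none rose: Timm9, a small chaperone of that route, fell by 1.05 (limma adjusted p = 0.00284). Of 17 tested other mitochondrial transporters, 2 rose and 4 fell. Mpc1, a subunit of the mitochondrial pyruvate carrier, rose by 0.87 from 74.6 to 90.0 TPM on control diet to 139 to 159.6 TPM on alcohol (limma adjusted p = 0.000307). Among 6 enzymes of the malate-aspartate and glycerol phosphate shuttles, Gpd1 of the latter fell by 1.70 (limma adjusted p = 6.2e-05) and the others did not pass. Slc22a5, the plasma membrane carnitine importer, rose by 1.33 (limma adjusted p = 0.000944) and with Cpt1b was 1 of 2 called among 6 carnitine shuttle genes. Of the 9 haem synthesis enzymes, Alas2 fell by 2.65 (limma adjusted p = 7.64e-07) and Uros by 0.49 (limma adjusted p = 0.0177), and none of 8 urea cycle and none of 7 citrate export and lipogenesis genes passed, with none at an unadjusted p under 0.05.

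Sums of markers of other cells separated by diet for some cell types in the same WT libraries and overlapped for others. Macrophage genes (9) summed to 88.0 to 95.7 TPM on control diet and 133 to 203 TPM on alcohol, and stellate genes (6) to 37.6 to 55.9 TPM and 66.7 to 119.6 TPM. Fat genes (4) summed to 10.9 to 70.1 TPM and 0.0749 to 3.54 TPM, and erythroid genes (4) to 120 to 248 TPM and 20.2 to 51.4 TPM. The diets overlapped for endothelial genes (5), at 18.1 to 49.3 TPM and 38.4 to 68.9 TPM. They also overlapped for cholangiocyte genes (5), at 22.3 to 74.5 TPM and 42.4 to 141 TPM, and for lymphocyte genes (5), at 2.36 to 4.06 TPM and 3.74 to 7.32 TPM. Dcn led the stellate sums (means of 45.3 and 75.7 TPM) and Cfd the fat sums (33.2 and 0.734 TPM). The part of other cells in the carrier results was not tested, and in whole liver fewer cells of a type and less RNA per cell cannot be told apart. The abundant Mup transcripts (major urinary proteins) took 7.26% to 10.9% of TPM on control diet and 0.177% to 0.251% on alcohol, which raises every other TPM value on alcohol. With the 21 Mup genes left out and TPM rescaled, the median change of all genes moved from -0.05 to -0.17. In that setting 3 members were higher and 11 lower, and Slc25a3 no longer passed (0.27, limma adjusted p = 0.0739). The share of all genes called in that setting is not given here, so these counts do not set the family apart from genes at large. Without WT alcohol replicate 1, 3 members passed higher and 3 lower, and the calls of Slc25a3, Slc25a23, Slc25a48 and Slc25a42 were lost. Slc25a3 was also lost without control replicate 1 or alcohol replicate 2 (limma adjusted p up to 0.0516), Slc25a23 without alcohol replicate 3 (0.0590), and Slc25a48 without control replicate 3 or 4 or alcohol replicate 4 (up to 0.0855). Slc25a42 passed without alcohol replicate 2 (0.0288) and was lost without any of the other 7 libraries (up to 0.124).

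Alcohol diet in the libraries labelled RageΔMye called no carrier. Of the 18 members with a mean of at least 10 TPM over these 6 libraries, 0 passed the limma test on log2(TPM + 10), beside 16 of 4319 genes (0.370%, with 0.255% higher and 0.116% lower). At an unadjusted p under 0.05 there were 3 members, beside 11.5% of all genes, and the libraries did not overlap in 3 members, beside 17.2%. The family summed to 933 ± 129 TPM on control diet and 1264 ± 154 TPM on alcohol (SD, n = 3), and 17 and 14 members were listed at 0 in all libraries of the diet. No gene of the lists of related enzymes and transporters passed either. In the same libraries, macrophage genes summed to 29.1 to 120.4 TPM on control diet and 20.2 to 70.8 TPM on alcohol. Totals of the 4 Y-linked genes ran from 3.16 to 4.502 TPM with control diet and from 0.276 to 1.74 TPM with alcohol. Xist, unlike in WT, overlapped between the diets, at 0 to 3.10 TPM with control diet and 0.322 to 0.990 TPM with alcohol. The part of these genes in the carrier values was not tested.

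Slc25a20 had the smallest p. The control libraries listed it at 23.0, 0 and 9.14 TPM and the alcohol libraries at 75.9, 47.1 and 18.5 TPM, so that the diets overlapped. The difference was 1.49 (SE 0.573, limma adjusted p = 0.380). Slc25a10 was next, at 3.11, 17.3 and 14.7 TPM on control diet and 43.2, 43.4 and 19.97 TPM on alcohol, without overlap. Its difference was 1.09 (SE 0.439, limma adjusted p = 0.395).

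Slc25a47 and Slc25a25 were the other tested members whose diets did not overlap. Slc25a47 was at 273, 183 and 98.5 TPM on control diet and 318, 348 and 289 TPM on alcohol (0.86, SE 0.360, limma adjusted p = 0.424). Slc25a25 was at 82.9, 79.2 and 52.2 TPM on control diet and 40.8, 39.8 and 43.7 TPM on alcohol, so the alcohol libraries were the lower ones here (-0.64, SE 0.303, limma adjusted p = 0.463). Slc25a5 was again the member with the highest control mean, at 217, 181 and 185 TPM on control diet and 273, 293 and 196 TPM on alcohol, and Slc25a39 was at 64.6, 90.4 and 83.1 TPM and 81.7, 158 and 157 TPM, both with overlap. Slc25a4 was listed at 0 in 5 of these 6 libraries and at 14.6 TPM in alcohol replicate 2. Slc25a3 had 41.5, 35.4 and 16.5 TPM on control diet and 33.8, 4.08 and 15.9 TPM on alcohol, which overlapped.

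Slc25a17 was listed at 0 in all 3 control libraries, and the alcohol libraries had 10.6, 4.503 and 22.1 TPM, also without overlap. Its mean was under 10 TPM, so it was not tested within this genotype. The 17.2% of genes without overlap given above was counted over tested genes only. Slc25a13 had 32.4, 12.4 and 11.5 TPM on control diet and 20.1, 25.6 and 11.2 TPM on alcohol, Slc25a22 had 43.6, 49.9 and 35.1 TPM and 33.5, 53.2 and 9.02 TPM, and Slc25a15 had 18.3, 6.11 and 24.9 TPM and 17.2, 10.5 and 28.3 TPM, all with overlap. Slc25a45 was listed at 0, 30.7 and 10.1 TPM and at 0, 10.9 and 21.03 TPM.

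**Figure D4:**
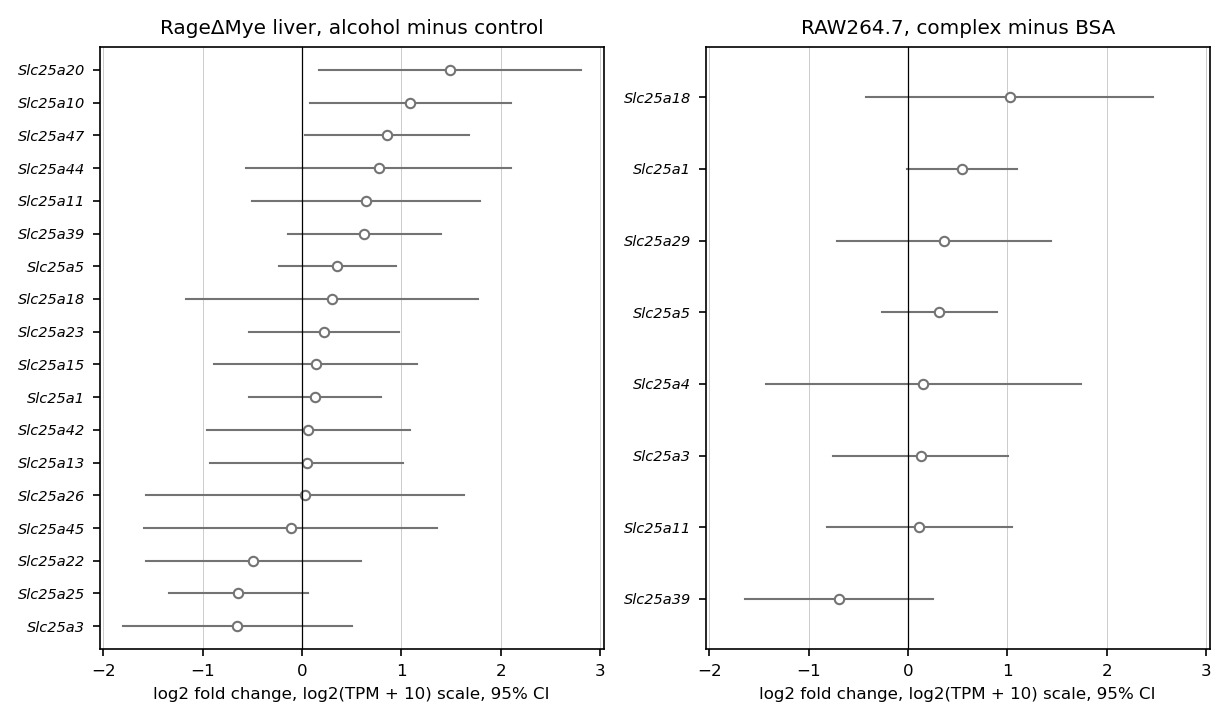
Log2 fold change on the log2(TPM + 10) scale with its 95% confidence interval for the 18 members tested in libraries labelled RageΔMye (alcohol minus control, left) and the 8 tested in RAW264.7 (complex minus BSA, right). No member passed in either comparison, and most intervals span 0.

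The difference of the diet effect between the genotypes was tested over all 14 liver libraries, with library weights estimated per genotype, for the 20 members with a mean of at least 10 TPM. None passed, beside 42 of 4667 genes (0.900%, with 0.429% higher and 0.471% lower), and 3 had an unadjusted p under 0.05, beside 11.5% of all genes. On simulated data this test called unchanged genes more often than its threshold allows, so its adjusted p-values are too small. The smallest p belonged to Slc25a17, which fell in WT and was listed at 0 on control diet in the libraries labelled RageΔMye. Its mean in the latter was under 10 TPM, so it entered this test only through its WT means of 22.5 TPM on control diet and 15.6 TPM on alcohol. Slc25a30 and Slc25a51 entered in the same way. For Slc25a17 the RageΔMye values lie near the lowest level those libraries resolve. The difference was 1.43 (SE 0.363, limma adjusted p = 0.104). That value depends on the setting, since without weights its adjusted p was 0.0114 and with a pseudocount of 1 the difference was 4.01 with adjusted p 0.00619. Slc25a20 differed by 1.65 (SE 0.551, limma adjusted p = 0.223). For Slc25a25, higher on alcohol in WT and lower in the libraries labelled RageΔMye, the difference of -1.90 had an SE of 1.25 and an adjusted p of 0.592, so opposite responses were not shown. For Slc25a47 the difference was 0.21, with a 95% interval from -1.39 to 1.81. Library set and genotype cannot be told apart here, because the libraries of each genotype stand apart as described above.

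Of the 34 members with at least 1 TPM in WT control, 7 had a higher mean in RageΔMye control. By the annotation, 12 of the 47 members have an exon over an exon of an opposite-strand gene, and 10 of these had at least 1 TPM in WT control. Their median ratio of RageΔMye to WT control means was 0.721, beside 0.286 for the 24 members without such an exon. Slc25a26, which shares exonic bases with Lrig1 of the other strand, was at 4.54 to 6.40 TPM in WT control and at 9.33, 53.0 and 44.5 TPM in RageΔMye control. Slc25a18, which shares exonic bases with Atp6v1e1, was at 0, 43.1 and 10.1 TPM in RageΔMye control and at 0 to 0.0458 TPM in all WT libraries. The strand setting of the authors' counting is not given in the sources used here. Reads within the shared bases therefore cannot be assigned to a member or to its partner. Those bases are 3.00% of the exonic bases of Slc25a26 and 1.67% of those of Slc25a18. For Slc25a25 (partner Naif1) they are 4.82%, and for Slc25a23 (partner Gm17168) 3.17%. The part of this overlap in the levels was not tested. With all genes that have an opposite-strand exon left out and TPM rescaled, the WT comparison called 3 members higher and 4 lower of 24 tested. The share of all genes called in that setting is not given here, so these counts do not set the members apart from genes at large.

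**Figure D5:**
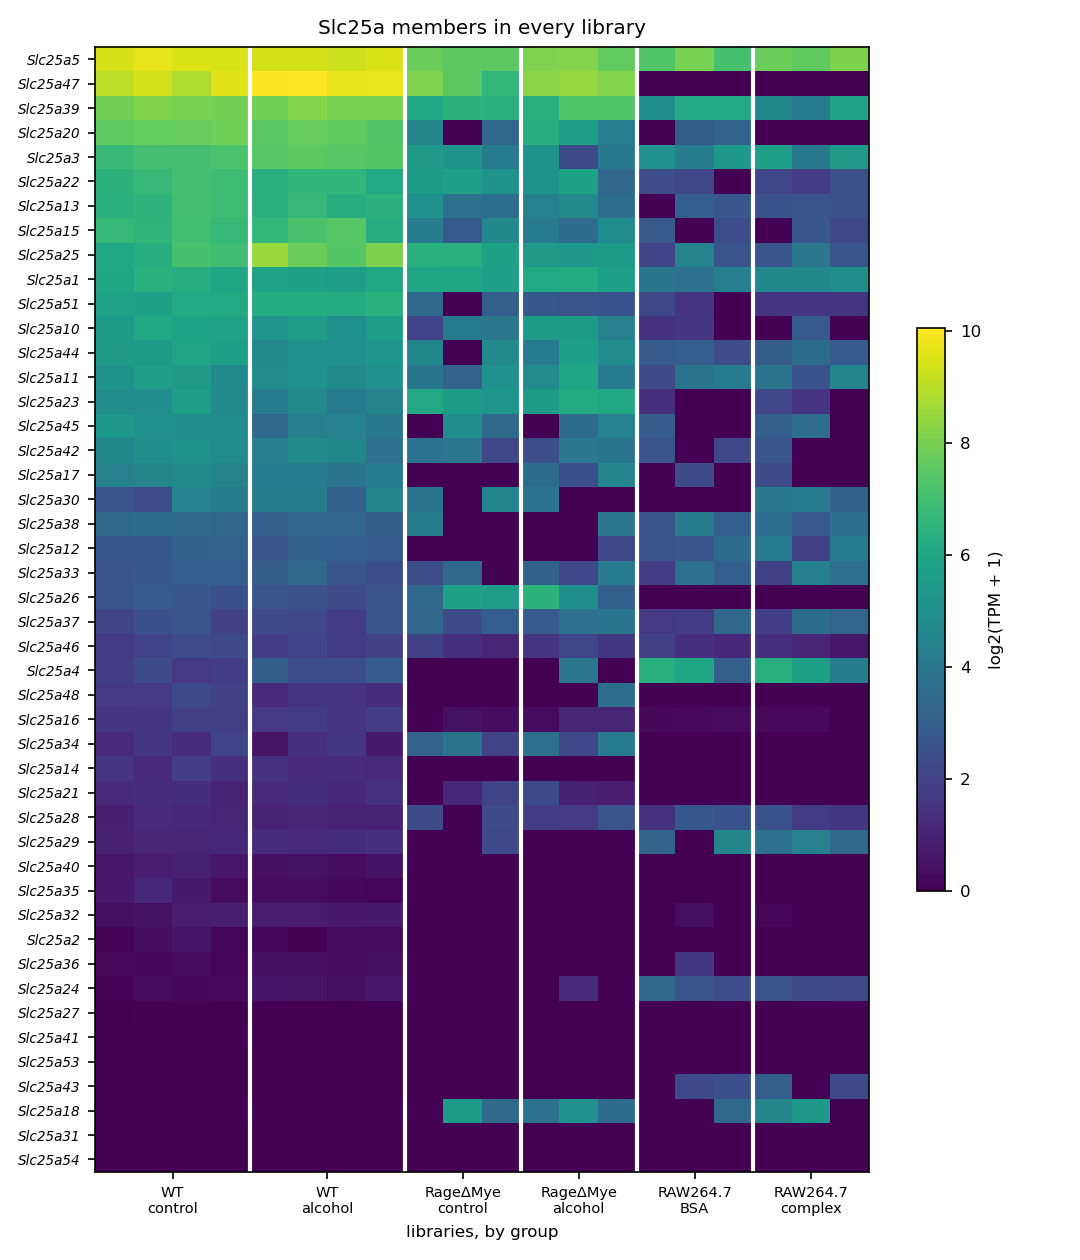
Level of 46 of the 47 members in all 20 libraries as log2(TPM + 1), ordered by WT control mean, with white lines between groups. The 14 liver libraries hold Slc25a47 and the 6 RAW264.7 libraries list it at 0, and Slc25a4 is brighter in RAW264.7 than in WT liver.

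The RAW264.7 libraries listed 23 to 29 of the 47 members above 0. The family summed to 446 ± 81.6 TPM with BSA and 534 ± 42.2 TPM with the complex (SD, n = 3), from a separate table that was not tested against liver. The highest member with BSA was Slc25a5, at 159, 259 and 139 TPM. Slc25a39 was at 31.5, 66.9 and 68.5 TPM, Slc25a4 at 80.6, 60.5 and 7.29 TPM and Slc25a3 at 32.6, 18.3 and 39.5 TPM, and these 3 overlapped. Slc25a47, with Slc25a5 among the highest members in liver, was listed at 0 in all 6 libraries, and is 1 of 16 members at 0 in every library of a group. Ucp2 was at 157, 199 and 139 TPM with BSA, which overlapped Slc25a5.

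The complex called no carrier in RAW264.7. Of 8 members tested on log2(TPM + 10), 0 passed in limma, beside 34 of 4489 genes (0.757%, with 0.601% higher and 0.156% lower), and 0 had an unadjusted p under 0.05, beside 12.4% of all genes. Slc25a1 had the smallest p, at 13.97, 12.5 and 19.2 TPM with BSA and 25.0, 23.7 and 31.3 TPM with the complex. These libraries did not overlap, as in 18.1% of all genes, and the difference was 0.54 (SE 0.239, limma adjusted p = 0.422). Slc25a39 followed, at 25.1, 16.02 and 55.1 TPM with the complex (-0.69, SE 0.406, limma adjusted p = 0.574). Slc25a5 was at 221, 194 and 268 TPM with the complex, Slc25a4 at 79.1, 51.0 and 17.9 TPM and Slc25a3 at 49.4, 15.8 and 40.6 TPM, all overlapping their BSA values. Slc25a18, the glutamate carrier near 0 in WT liver, was listed at 0, 0 and 9.32 TPM with BSA and at 22.5, 39.7 and 0 TPM with the complex. Slc25a12, the lower aspartate/glutamate exchanger in WT liver, had 5.08, 5.70 and 10.3 TPM with BSA, beside 0, 7.12 and 5.70 TPM of Slc25a13. Slc25a30, an uncoupling-like carrier, was listed at 0 in the 3 BSA libraries and at 15.4, 16.2 and 7.60 TPM with the complex, and its mean was under 10 TPM, so it was not tested.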

How the data were processed

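RNA-seq was made from total liver (14 libraries) and RAW264.7 cells (6 libraries) with a stranded mRNA kit, per the labels' protocols, on genome build mm10, per the submitters' processing notes. For the aligner, counter, strand setting and annotation, nothing is given in the sources used here. The authors deposited 1 table per tissue with no stated unit. The deposited values were read as TPM because each column sums to 1000000 and holds fractions. Whole reads could not be recovered, so the depth is unknown.

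The 4 rows with repeated symbols were left out of tests. Each comparison was fitted on its own libraries with limma 3.58.1 (intensity trend, R 4.3.3): WT on log2(TPM + 1) for genes with a mean of at least 1, the others on log2(TPM + 10) with a mean of at least 10. The fits were tested on simulated data, where the test of the difference made too many false calls and the tests outside WT missed most of the smallest changes. Positions and opposite-strand exons came from GENCODE M21, which matched 24464 of 24968 symbols. Members were named if they passed a test, or had the 2 smallest p, ranked among the 8 highest in WT control or 4 highest in RAW264.7 BSA, or belonged to a paralogue pair; others are given by range. Members and lists were chosen with earlier results of these data known. Leaving out Mup or opposite-strand genes was chosen after seeing the data. Some genes are not reported here.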

Additional observations from a re-analysis of the deposited data

Results flagged for a closer look

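Over 24 named members and the WT diets, 48 groups of 4 libraries were searched for a library far from the others, and chance alone gives about 1 such group in 20. There were 2. Slc25a3 stood at 182.55 TPM in WT alcohol replicate 2, while the other 3 alcohol libraries lay between 169.7 and 171.7 TPM. Without that library Slc25a3 just missed the threshold (limma adjusted p = 0.0515, 0.39 on the log2 scale). Slc25a18 stood at 0.0353 TPM in WT control replicate 4 and at 0 in the other 3 control libraries.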

How the results depend on the processing

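In WT liver, the counts of members higher and lower (4 and 6) stayed within 1.5 times under pseudocounts of 0.1 and 10, both other filters, quantile normalization and omission of opposite-strand genes. Leaving out each library gave 3 to 5 higher and 3 to 7 lower, and 1917 to 3221 genes in all. The count of lower members was 3 without WT alcohol replicate 1. A filter at a mean of 5 TPM called 1657 genes of 5711 tested. A joint fit of the 14 liver libraries, whose pooled spread includes the libraries labelled RageΔMye, called 267 genes in WT, with 1 member higher (Slc25a25, adjusted p = 0.0347) and 0 lower, and 578 genes in the libraries labelled RageΔMye, with 3 members higher. With Mup genes left out, 11 members were lower, a count without the share of all genes beside it. In libraries labelled RageΔMye, 16 genes became 8 at a pseudocount of 0.1, 10 at a pseudocount of 1, 0 without a filter, 8 without opposite-strand genes and 2 to 19 on leaving out each library, with 0 members throughout. In RAW264.7, 34 genes became 14 without a filter, 60 with a filter at 50, 7 without opposite-strand genes and 13 to 16 on leaving out each library, again with 0 members. For the difference of effects, fitting without weights called 386 genes with 2 members higher and 1 lower, a pseudocount of 1 called 1 member higher, and leaving out opposite-strand genes gave 22 genes. With the sample number as a replicate block, 4 genes were called in libraries labelled RageΔMye and 10 in RAW264.7, and 0 members in each. In libraries labelled RageΔMye, correlations ran from -0.0264 to 0.068 for the same number and from -0.0735 to 0.0338 for different numbers. In RAW264.7 they ran from -0.067 to -0.0186 and from -0.0257 to 0.0473. All are near 0, and with 3 libraries per group this check is too weak to exclude a pairing. The numbers were not taken to pair the libraries. No WT pairing was possible because the labels give those groups no shared numbers. The cause of these shifts was not tested, apart from the number of genes tested under another filter. The summed level in WT control lay between 2750 and 2926 TPM on leaving out each library. The 10 members called in WT and the 2 with the smallest p in each other test kept their direction under every alternative in which they were tested; the other members were not followed. The planned edgeR test was not run because whole reads could not be recovered. Depth is unknown, and the step of 9.85 to 20.5 TPM outside WT limits what could be seen for low members.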

Other observations

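The WT control libraries differed among themselves in some carriers. Slc25a30 was at 5.52 and 4.16 TPM in replicates 1 and 2 and at 21.04 and 18.2 TPM in replicates 3 and 4, and Slc25a25 was at 63.6 and 76.1 TPM and at 140.2 and 126 TPM in the same libraries. Slc25a13 and Slc25a51 were also lower in replicates 1 and 2 (83.5 and 90.9 TPM, 54.1 and 52.2 TPM) than in replicates 3 and 4 (133 and 121 TPM, 69.4 and 67.6 TPM). These members were chosen after their values were seen, and the labels name no batch.

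WT alcohol replicate 1 had the highest Slc25a25 of all libraries (369.5 TPM) and the lowest Slc25a45 of the WT libraries (9.23 TPM). Some members under 1 TPM also separated by diet in WT liver without being tested: Slc25a24 (0.0801 to 0.222 TPM on control diet, 0.301 to 0.617 TPM on alcohol), Slc25a36 (0.139 to 0.219 TPM, 0.255 to 0.317 TPM) and Slc25a40 (0.559 to 0.870 TPM, 0.248 to 0.400 TPM). They were picked after their values were seen. The diets separated in 30.0% of all genes tested in WT, and no share was taken for genes under 1 TPM. Ucp2 was at 61.3, 34.6 and 32.5 TPM in RageΔMye control and at 20.5, 27.0 and 25.1 TPM in RageΔMye alcohol. These libraries did not overlap, as in 17.2% of all genes tested there. Its difference of diet effect from WT was -1.28 (limma adjusted p = 0.421).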
